A study of Mus musculus with 69 samples.

Results

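The comparison asks which genes respond differently to interleukin-4 (IL-4) in macrophages of 2 inbred mouse strains, C57BL/6J (C57) and PWK/PhJ (PWK). It takes the change after 24 h of IL-4 in PWK and subtracts the same change in C57, gene by gene. It used 11 RNA sequencing libraries: 3 of untreated (basal) and 3 of IL-4-treated C57 cells, and 2 of basal and 3 of IL-4-treated PWK cells. They are part of 29 libraries of 5 strains and of a series of 69 samples. The other strains are BALB/cJ (BALB), NOD/ShiLtJ (NOD) and SPRET/EiJ (SPRET), basal and after 24 h of IL-4. A separate time course of 16 libraries, of C57 and SPRET cells, was used for its C57 response at 24 h. All were bone marrow-derived macrophages (BMDMs), grown from marrow for 7 days with the growth factor M-CSF, and treated cells received 20 ng/mL of mouse IL-4. The marrow came from female mice of 8 to 12 weeks, and the labels give no transgene or deletion for them. The labels do not say that replicates came from separate animals, so the p-values measure the spread between these libraries. Values are TPM, transcript abundance corrected for transcript length and scaled to a fixed total per library.

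IL-4 is a cytokine of type 2 immunity. It binds a receptor containing the IL-4 receptor alpha chain, Janus kinases then phosphorylate the transcription factor STAT6, and STAT6 switches on an "alternatively activated" programme in macrophages that is known for arginine use, chitinase-like proteins, lectins, chemokines and the damping of inflammatory genes. C57 is a classical laboratory strain, whereas PWK was derived from wild mice of another subspecies, so the genomes of the pair differ at a very large number of sites.

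Libraries held between 7.02 and 18.7 M tags. Within the 4 groups, Pearson's r of log2(TPM + 1) between replicates lay between 0.9898 and 0.9952, a description across genes. Of the 10 macrophage markers examined, all were at 1 TPM or more in every C57 library and 9 in every PWK library, and their summed level was 20700 to 26200 TPM in C57 and 9380 to 9800 TPM in PWK, mainly through lysozyme (Lyz2). T and NK, B, mast cell, erythroid and dendritic cell markers summed to at most 6.23 TPM in any of these libraries. Markers of fibroblasts and endothelium summed to 202 to 210 TPM in basal PWK and 108 to 114 TPM in IL-4-treated PWK cells, against 5.38 to 7.69 TPM in C57. Almost all of that was decorin (Dcn), while the collagen genes Col1a1, Col1a2 and Col3a1 stayed near 0. Pdgfra was also higher in PWK, with means of 1.85 TPM before and 1.48 TPM after IL-4, against 0 and 0.0343 TPM in C57. Cdh5 stayed under 1 TPM, and Pecam1 was at similar levels in both strains. The part of such cells in the PWK libraries was not tested. In bulk samples, fewer cells of one type and less RNA per cell cannot be told apart.

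In total, 11907 genes passed a filter of 1 TPM in at least 2 libraries. A gene is called here when limma's Benjamini-Hochberg adjusted p is under 0.05 and its difference exceeds 2-fold, on the log2(TPM + 1) scale, which understates changes of low genes. The effect of IL-4 was more positive in PWK for 150 genes (1.26% of those tested) and more negative in PWK for 119 genes (0.999%). These groups are named PWK-higher and PWK-lower below. PWK-higher thus covers both a stronger induction in PWK and a weaker repression. At the adjusted p alone, whatever the size, 1998 genes (16.8%) were PWK-higher and 665 (5.58%) PWK-lower. The direction of the small differences depended on the scaling. The median difference over all genes was 0.13 on the log2 scale, and rescaling each library by the median of gene ratios moved that median to about 0 and gave 103 PWK-higher and 156 PWK-lower genes past 2-fold. All 119 PWK-lower genes and 103 of the 150 PWK-higher genes were called both ways. PWK-higher genes made up 55.8% of the calls with TPM as deposited and 39.8% after rescaling.

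**Figure D1:**
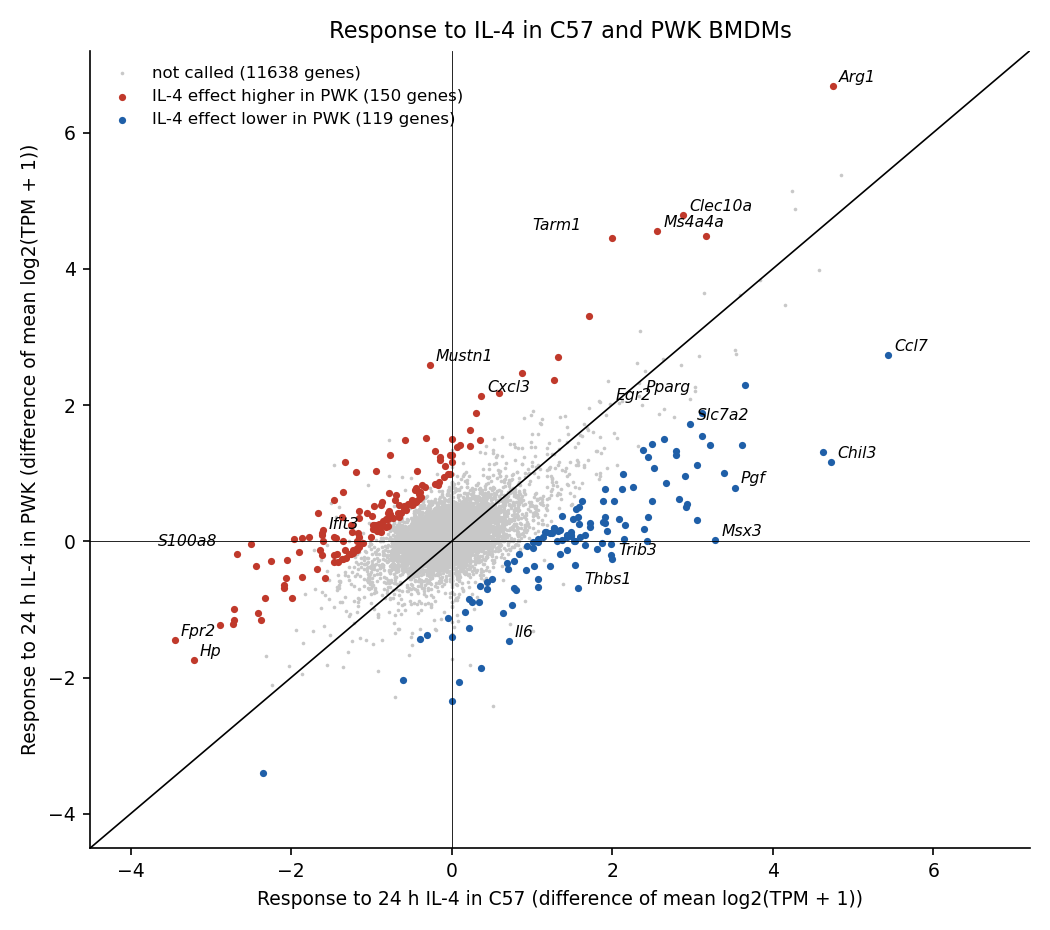
Response to 24 h of IL-4 in C57 (x axis) against PWK (y axis), each the difference of mean log2(TPM + 1) between treated and basal libraries, for the 11907 genes tested. The diagonal marks an equal response. The 119 blue genes lie below it, mostly to the right where C57 was induced, and many of the 150 red genes lie to the left, where C57 was repressed and PWK was near 0.

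Each strain's own response shows where the differences arose. IL-4 induced 271 genes in C57 (2.28%) and 183 in PWK (1.54%), and repressed 182 in C57 (1.53%) and 65 in PWK (0.546%). Among the 119 PWK-lower genes, 72 were induced in C57 with no call in PWK, 18 were induced in both, 12 were repressed in PWK with no call in C57, 1 was repressed in both and 16 were called in neither. Among the 150 PWK-higher genes, 57 were repressed in C57 with no call in PWK, 23 were induced in PWK with no call in C57, 8 were induced in both, 8 were repressed in both and 54 were called in neither. No gene was induced in one strain and repressed in the other by this rule. These counts describe genes chosen on the same values and carry no test of their own.

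The greatest PWK-lower difference was that of Chil3. Chil3 (Ym1, a chitinase-like protein; mm10 chr3:106147554-106167564) read 63.6, 71.2 and 61.3 TPM in basal C57 and 1730, 1860 and 1670 TPM after IL-4. In PWK it read 0.552 and 3.01 TPM at baseline and 2.96, 4.27 and 7.24 TPM after IL-4. The strains were far apart already at baseline, and the gap widened. The log2 response was 4.72 in C57 and 1.16 in PWK, a difference of -3.57 ± 0.33 (SE, adjusted p = 1.6e-08 in limma). Chil4, its neighbour and near-identical relative, went from 0.0197 to 3.07 TPM in C57 and stood at 0.137 and 0.107 TPM in PWK, but reads of the pair can be assigned to either gene. Summed, Chil3 and Chil4 gave 1670 to 1860 TPM in IL-4-treated C57 and 2.96 to 7.49 TPM in IL-4-treated PWK.

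Chemokines were prominent among the PWK-lower genes. Ccl24 (eotaxin-2, an eosinophil attractant; chr5:135569937-135573043) read 0.137, 0.39 and 0.103 TPM in basal C57 and 24, 30.7 and 32.1 TPM after IL-4. In PWK it read 0.131 and 0.319 TPM at baseline, the same range as C57, and 1.73, 1.56 and 2.95 TPM after IL-4. The difference in response was -3.32 ± 0.22 (SE, adjusted p = 6.0e-11), and the basal levels did not differ detectably (adjusted p = 0.93 in limma). Ccl7 (MCP-3, a monocyte attractant; chr11:82045712-82047523) showed another pattern, with a difference of -2.69 ± 0.14 (SE, adjusted p = 4.9e-13). It read 6.31, 6.3 and 5.74 TPM in basal C57 but 32.9 and 33 TPM in basal PWK, and it rose to 331, 322 and 270 TPM in C57 and to 207, 248 and 223 TPM in PWK. The response was therefore 5.43 in C57 and 2.74 in PWK on the log2 scale, although both strains ended within 0.44 of each other on that scale.

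Of 19 chemokine genes tested, 6 were PWK-lower and 1 was PWK-higher past 2-fold, and the median difference was -0.60 against 0.13 over all genes. Over all genes tested, 0.999% were PWK-lower and 1.26% PWK-higher past 2-fold. At the adjusted p alone the shares were 5.58% and 16.8%. All of these shares are the background for each list below. After Ccl24 and Ccl7 came Ccl22, a CCR4 ligand that attracts type 2 helper and regulatory T cells, which went from 0.305 to 8.25 TPM in C57 and from 2.62 to 4.54 TPM in PWK (difference -2.20 ± 0.23, adjusted p = 9.2e-08). Ccl9, Ccl6 and Ccl2, outside the naming rule and given after their values were seen, differed by -1.46, -1.43 and -1.35, and Ccl2 by -0.92 with a pseudocount of 5 TPM. The exception was the neutrophil attractant Cxcl3, which read 22.4, 16.2 and 20.3 TPM in basal C57 and 23.7, 25.6 and 27 TPM after IL-4, but rose in PWK from 73.6 and 81.2 TPM to 327, 349 and 350 TPM (difference 1.76 ± 0.16, adjusted p = 9.5e-09). Every PWK library of Cxcl3 stood above every C57 library.

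Msx3, a homeobox transcription factor (chr7:140046157-140049088), read 1.39, 1.02 and 0.55 TPM in basal C57 and 17.8, 20.7 and 15.8 TPM after IL-4. Both untreated PWK libraries list it at 0, as do 2 of the 3 treated ones, and the last reads 0.028 TPM. Its difference was -3.27 ± 0.18 (SE, adjusted p = 1.3e-12), and no PWK library overlapped C57. In the other strains the response was 2.29 in BALB, 0.39 in NOD and -0.00 in SPRET. Pgf, a placental growth factor of the VEGF family, followed with a difference of -2.74, from 0.64 ± 0.224 to 18.1 ± 4.34 TPM (SD, n = 3) in C57 and from 0.469 and 1.3 TPM to 3.01, 1.28 and 2.51 TPM in PWK.

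The other PWK-lower genes among the 12 named by size were Lrrc32, Tuba8, Trib3, Thbs1, Cd83, Hcar2 and Gsta2, with differences of -2.41, -2.39, -2.26, -2.25, -2.20, -2.19 and -2.19. Lrrc32 encodes GARP, which anchors latent TGF-beta at the cell surface. It rose from 0.546 to 10.5 TPM in C57 and moved from 0.033 to 0.464 TPM in PWK. The ratios of these means, 19.3 in C57 and 14.1 in PWK, were close. At PWK levels under 1 TPM the log2(TPM + 1) scale understates a rise, so the size of the Lrrc32 difference depends on that scale. Its call was kept under all 20 alternatives, a pseudocount of 0.1 TPM among them. Cd83, a surface marker of activated antigen-presenting cells, read 4.26, 4.86 and 4.13 TPM in basal C57 and 28.7, 31 and 22.9 TPM after IL-4. In PWK it read 9.81 and 9.67 TPM before and 12.3, 10.7 and 10.7 TPM after, so PWK lay between the C57 conditions of these libraries. Tuba8, an alpha-tubulin, rose from 0.068 to 10.3 TPM in C57 and from 0.311 to 1.64 TPM in PWK. Trib3, a pseudokinase induced by cell stress, read 8.42, 4.4 and 6.65 TPM in basal C57 and 29.4, 27.3 and 27.8 TPM after IL-4, whereas PWK read 14.4 and 17.1 TPM before and 13.4, 12.3 and 13.1 TPM after. Hcar2, the receptor for niacin and beta-hydroxybutyrate, went from 0.681 to 5.49 TPM in C57 and stood at 12.7 and 10.9 TPM in PWK. Thbs1, thrombospondin 1, rose from 4.14 to 14.2 TPM in C57 and fell from 0.951 to 0.21 TPM in PWK by the adjusted p. Gsta2, a glutathione S-transferase that both untreated PWK libraries list at 0, rose from 1.56 to 30.3 TPM in C57 and to 1.81 TPM in PWK. It lost its call when the pseudocount was 0.1 TPM (difference -0.10, adjusted p = 0.90), and reads of its paralogs can be exchanged.

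**Figure D2:**
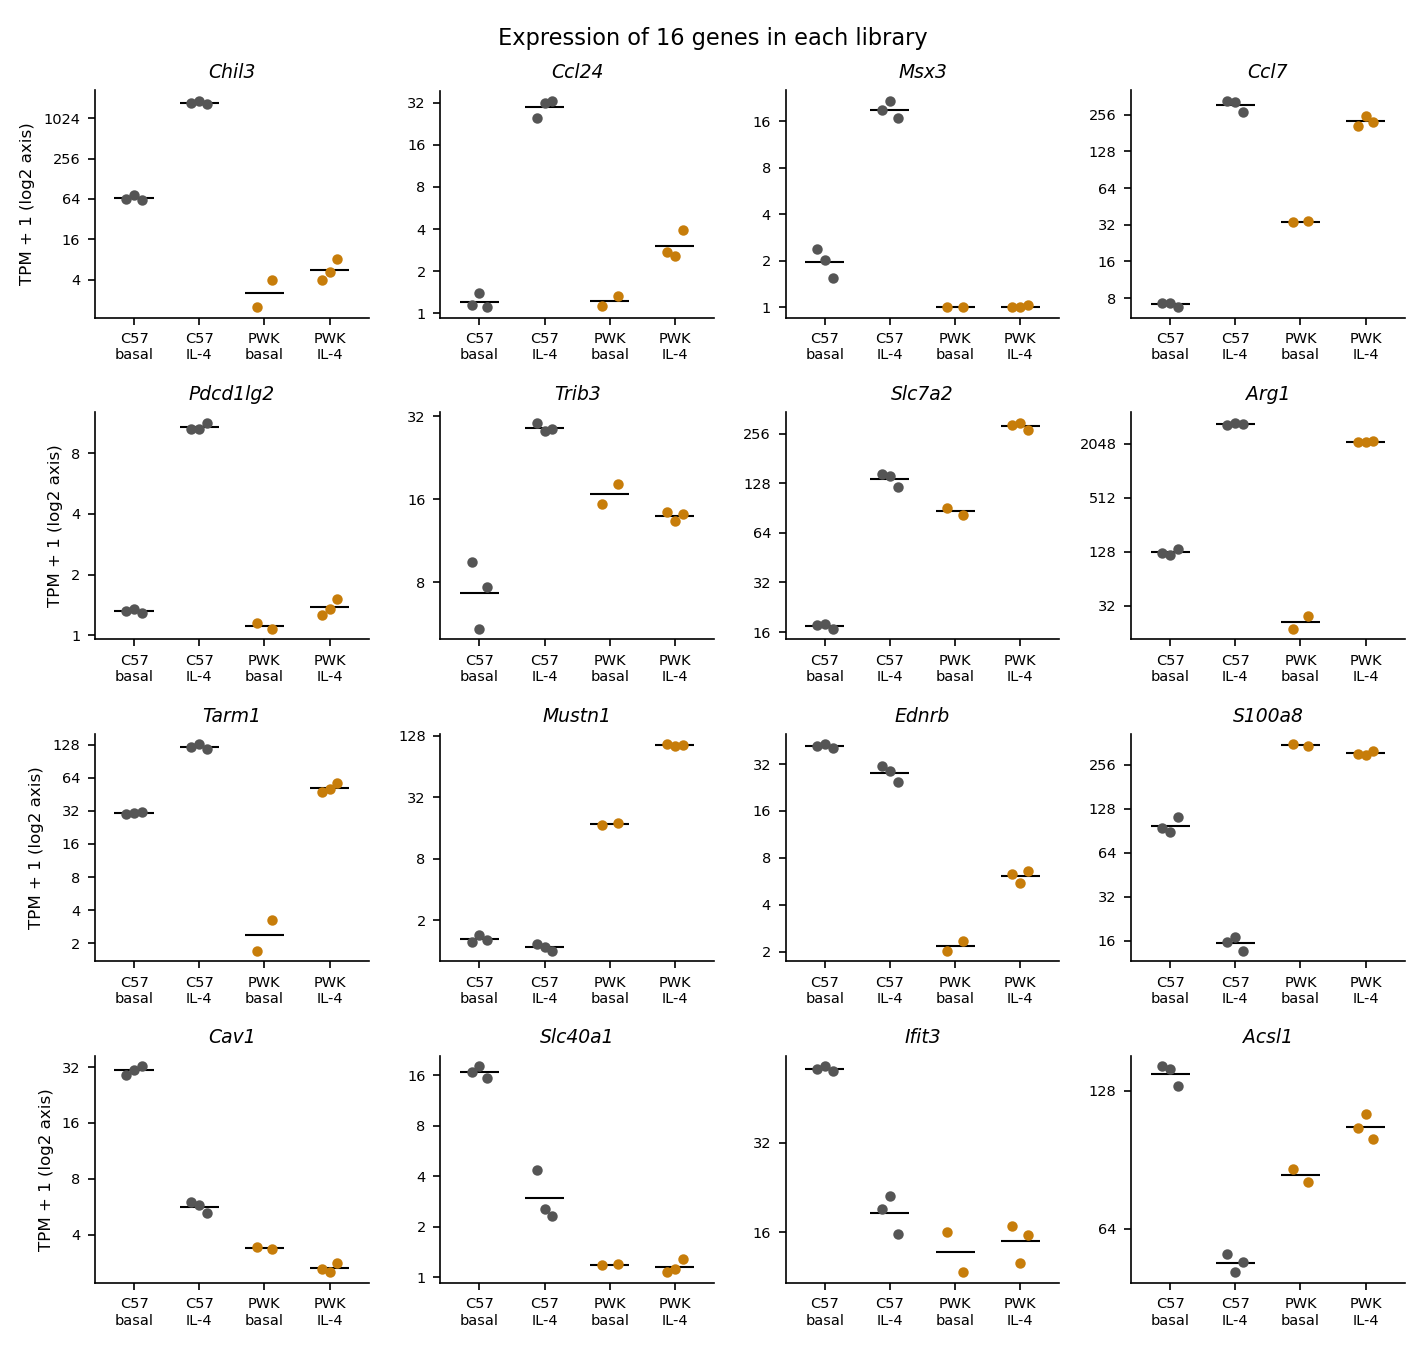
Expression of 16 genes in each of the 11 libraries, as TPM + 1 on a log2 axis that differs between panels. Grey points are C57 and orange points PWK libraries, basal and after 24 h of IL-4, and lines are group means on the log scale. Chil3, Ccl24, Msx3 and Pdcd1lg2 rose in C57 far more than in PWK, Mustn1 rose in PWK alone of the pair, and S100a8, Cav1, Slc40a1, Ifit3 and Acsl1 fell in C57.

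The 12 PWK-higher genes named by size were of 3 kinds. The first were induced in both strains, and more so in PWK. Tarm1, a receptor of myeloid cells, went from 29.6 to 121 TPM in C57 but from 0.71 and 2.25 TPM to 46.3, 49.6 and 56.4 TPM in PWK (difference 2.46 ± 0.22, adjusted p = 1.1e-08). The fold was larger in PWK and the level after IL-4 lower. Ms4a4a, a membrane protein that partners with lectins in alternatively activated macrophages, rose from 11.4 to 72.1 TPM in C57 and from 2.99 to 92.8 TPM in PWK, a difference of 2.00.

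The second kind fell in C57 and rose in PWK at the adjusted p. Mustn1, a small nuclear protein of muscle and bone (chr14:30879257-30881610), read 16 and 16.8 TPM in basal PWK and 105, 102 and 103 TPM after IL-4, while no C57 library exceeded 0.426 TPM. Its difference was 2.86 ± 0.13 (SE, adjusted p = 1.1e-13). Its C57 response was -0.28 on the log2 scale (adjusted p = 0.016 in limma), at levels under 1 TPM. Ednrb, the endothelin B receptor, read 41, 41.8 and 39.8 TPM in basal C57 and 30.1, 27.9 and 23.5 TPM after IL-4. In PWK it read 1.03 and 1.33 TPM before and 5.31, 4.51 and 5.56 TPM after, a difference of 2.07 ± 0.17 (SE, adjusted p = 3.2e-09). C57 remained above PWK throughout. Ifi205, an interferon-inducible gene of the p200 family, read 13.2, 13.6 and 11.8 TPM before and 7.49, 7.2 and 6.66 TPM after IL-4 in C57, and 5.93 and 5.21 TPM before and 14.9, 17.1 and 12.9 TPM after in PWK. The order of the strains turned over in these libraries, and the difference was 2.05, although reads of this closely related family can be exchanged. Plac8 changed in the same directions, from 10.4 to 5.10 TPM in C57 and from 2.18 to 5.37 TPM in PWK. Fxyd2, a regulator of the sodium pump, fell from 127 to 45.0 TPM in C57 and rose from 3.90 to 6.12 TPM in PWK. Every PWK library of Fxyd2 was below every C57 library.

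The last kind was repressed in C57 and repressed less, or not by the rule, in PWK. S100a8 (chr3:90669071-90670034), a subunit of calprotectin, read 94, 87.1 and 111 TPM in basal C57 and 14.6, 16.1 and 12.7 TPM after IL-4, against 351 and 341 TPM before and 301, 296 and 315 TPM after in PWK. The difference was 2.48 ± 0.14 (SE, adjusted p = 2.9e-12). Its partner S100a9 differed by 2.09, falling from 17.0 to 4.90 TPM in C57 and reading 189 and 253 TPM in PWK. Both belong to the 9 neutrophil markers examined, which summed to 106 to 131 TPM in basal C57, 16.8 to 24.5 TPM in IL-4-treated C57, and 552 to 602 TPM across PWK libraries. Ly6g was listed at 0 in all C57 and in all IL-4-treated PWK libraries, Mpo and Elane means stayed under 1 TPM in all 4 groups, and the granule genes Camp, Ngp and Ltf reached 11.8, 3.71 and 3.48 TPM in basal PWK. The differences in response of Camp, Ngp and Ltf did not pass the test (adjusted p = 0.52, 0.88 and 0.60 in limma). The part of such cells in the S100a8 and S100a9 results was not tested.

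Fpr2, a receptor for formyl peptides, fell in both strains, from 105, 103 and 112 TPM to 7.84, 8.26 and 10.6 TPM in C57 and from 109 and 96.8 TPM to 39.8, 34.5 and 36.7 TPM in PWK. The basal libraries of the strains overlapped and those after IL-4 did not (difference 2.00 ± 0.13, adjusted p = 5.4e-11). Slc40a1 (ferroportin, the iron exporter) fell from 15.7 to 2.06 TPM in C57 and read 0.185 and 0.155 TPM in PWK. At that basal PWK level almost no fall could register on the log2(TPM + 1) scale, so its difference mainly restates the C57 response. Cav1 (caveolin 1) fell from 29.8 to 4.67 TPM in C57 and read 2.41 and 1.65 TPM in PWK. For Slc40a1 and Cav1 every basal PWK library was below every treated C57 library.

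Of 14 genes of IL-4 signalling tested, a list of receptor chains, kinases, STAT6 and feedback inhibitors, none was PWK-higher past 2-fold and 2 were PWK-lower. At the adjusted p alone 4 were PWK-higher and 3 PWK-lower, and the median difference was 0.20 against 0.13 over all genes. The 2 past 2-fold were suppressors of cytokine signalling, negative feedback regulators of Janus kinases. Socs1 read 1.88, 3.16 and 1.47 TPM in basal C57 and 22.4, 21.4 and 23.1 TPM after IL-4, against 4.37 and 3.1 TPM before and 9.09, 9.16 and 6.33 TPM after in PWK (difference -1.96 ± 0.30, adjusted p = 3.2e-05). Socs2 differed by -1.14 and fell under the 2-fold limit (-0.92) without the second basal PWK library. Cish, another member of that family, named after its values were seen, differed by -0.73 (adjusted p = 5.9e-04). Stat6 read 49.2 to 59 TPM in basal C57, 51.2 to 59.2 TPM in treated C57, 40.8 and 42.6 TPM in basal PWK and 43.6 to 45.1 TPM in treated PWK. Its difference in response was 0.03 ± 0.097 (adjusted p = 0.85). Stat6 overlaps Nab2 on the opposite strand in the annotation, as Bhlhe40 below overlaps an uncharacterised gene.

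Egr2, a zinc finger transcription factor that IL-4 induces, had lower levels in PWK in both conditions. It read 14.4, 13.1 and 12.5 TPM in basal C57 and 62, 55.5 and 48.7 TPM after IL-4, and 3.37 and 3.44 TPM before and 18, 17.4 and 15 TPM after in PWK. The responses were 1.97 and 2.01, a difference of 0.04 ± 0.13 (adjusted p = 0.86) whose sign turned with the scaling and which was -0.34 (adjusted p = 0.033) with a pseudocount of 5 TPM. Pparg, a nuclear receptor of lipid metabolism, rose from 3.85 to 23.5 TPM in C57 and from 2.61 to 14.9 TPM in PWK (difference -0.20 ± 0.12, adjusted p = 0.23). Among the 32 transcription factors tested, 4 were PWK-lower and 1 was PWK-higher past 2-fold, 12 and 2 at the adjusted p alone, and the median difference was -0.25. Besides Msx3, the PWK-lower ones were Irf4 (-1.30), a factor required for parts of alternative activation, Bhlhe40 (-1.07) and, outside the naming rule, Batf3 (-1.04). Batf3 lost its call with a replicate block and without the third treated PWK library. Tfec, a relative of MITF, was the PWK-higher one, going from 15.4 to 38.5 TPM in C57 and from 3.31 to 21.2 TPM in PWK (difference 1.09), a size that fell to 0.94 after rescaling by the median ratio.

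Effector genes went both ways. Of 31 effectors and lectins of alternative activation tested, 9 were PWK-lower and 4 PWK-higher past 2-fold, 18 and 6 at the adjusted p alone, and the median difference was -0.69. This list was assembled with results of these data known. C57 induced 21 of the 31 and PWK 16. Pdcd1lg2 (PD-L2, a ligand of the inhibitory receptor PD-1) read 0.31, 0.343 and 0.291 TPM in basal C57 and 9.57, 9.65 and 10.4 TPM after IL-4, and at most 0.518 TPM in any PWK library (difference -2.74 ± 0.16, adjusted p = 6.0e-12). Flt1, a VEGF receptor, rose from 0.173 to 7.93 TPM in C57 and from 0.033 to 0.515 TPM in PWK (difference -2.38). The lectins Clec10a and Clec7a and the enzyme gene Il4i1, added after their values were seen, differed by 1.91, 1.30 and -1.57. Il4i1 overlaps the predicted gene Gm21948 on the same strand in the annotation. Gm21948 was also PWK-lower (-1.16), and reads of the 2 can be exchanged. Mrc1, the mannose receptor CD206, had a difference of 0.03 ± 0.13 (adjusted p = 0.91), with means of 15.0 and 192 TPM in C57 and 0.573 and 18.3 TPM in PWK. That value depends on the pseudocount, since the basal PWK level is below 1 TPM, and it was 1.11 (adjusted p = 2.1e-06 in limma) with 0.1 TPM and -1.23 (adjusted p = 6.5e-09) with 5 TPM.

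Genes of arginine use differed in opposite directions. Arg1 (arginase 1; chr10:24915207-24927470) read 124, 117 and 137 TPM in basal C57 and 3340, 3510 and 3390 TPM after IL-4, and 16.7 and 23.7 TPM before and 2130, 2140 and 2180 TPM after in PWK. The log2 response was 4.75 in C57 and 6.68 in PWK, a difference of 1.94 ± 0.24 (SE, adjusted p = 1.6e-06), yet every treated PWK library was below every treated C57 library. Slc7a2, the arginine transporter CAT2 (chr8:40862367-40922070), was its mirror image. It read 16.6, 16.8 and 15.7 TPM in basal C57 and 145, 141 and 121 TPM after IL-4, and 90.1 and 81.7 TPM before and 288, 298 and 267 TPM after in PWK (difference -1.25 ± 0.10, adjusted p = 2.7e-09). PWK was higher in both conditions and its fold smaller. The amino acid transporters Slc7a5 and Slc7a1 rose in C57, with differences of -1.71 and -1.34, and the polyamine enzymes of the list were not called. In all, 3 of 18 genes tested were PWK-lower and 1 PWK-higher.

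Pdcd1lg2 and Tfec, 1 gene from each direction, carry the STAT6-type motif, TTC and GAA with any 4 bases between, upstream of their start, at 82 and 200 bases. Their reference (C57) sequences are printed for that reason, from the RefSeq table of GRCm38.p6, 250 bases up to the start, with the motif in capitals. PWK alleles were not analysed here.
Pdcd1lg2, chr19:29410669-29410918, + strand: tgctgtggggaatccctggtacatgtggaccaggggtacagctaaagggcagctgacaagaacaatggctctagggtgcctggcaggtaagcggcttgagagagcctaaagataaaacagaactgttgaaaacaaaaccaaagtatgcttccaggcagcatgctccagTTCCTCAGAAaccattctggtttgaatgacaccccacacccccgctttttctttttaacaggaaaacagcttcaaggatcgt
Tfec, chr6:16898442-16898691, - strand: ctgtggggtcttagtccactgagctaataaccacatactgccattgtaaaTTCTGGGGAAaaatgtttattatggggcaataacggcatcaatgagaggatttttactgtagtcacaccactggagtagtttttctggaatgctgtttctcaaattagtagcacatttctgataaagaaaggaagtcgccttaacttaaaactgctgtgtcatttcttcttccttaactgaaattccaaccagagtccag
The motif, its own reverse complement, lies in 5.85% of all promoters of that length and in those of 5.63% of the genes tested. It lies in those of 13 of 114 PWK-higher genes with a listed promoter (11.4%) and of 10 of 82 PWK-lower genes (12.2%). These are counts of letters only. The other 5 motifs searched, on both strands, were TTCNNNGAA (STAT-type), the interferon-stimulated response element core (a pair of GAAA repeats with any 2 bases between), TGACTCA (AP-1-type), the antioxidant response element with TGACTCA inside it (G before, GCA after) and TGATGNAA (ATF4 and C/EBP composite). They were found in 7.02%, 2.98%, 4.46%, 0.0639% and 3.45% of all promoters. Counted by gene, with a match in any listed promoter, the shares of genes tested were 7.14%, 3.45%, 4.32%, 0.0553% and 2.51%. They were 8.77%, 7.02%, 6.14%, 0% and 1.75% of PWK-higher genes, and 9.76%, 4.88%, 14.6%, 0% and 6.10% of PWK-lower genes.

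**Figure D3:**
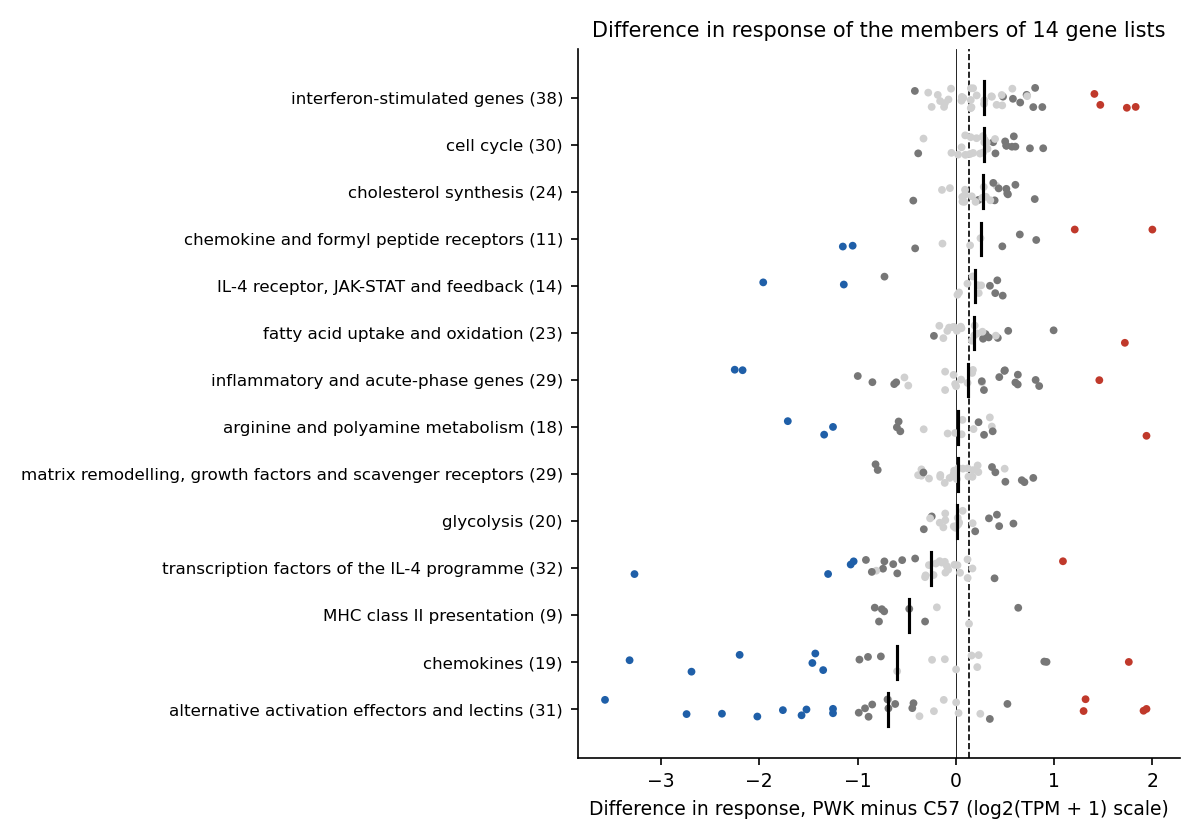
Difference in response, PWK minus C57 on the log2(TPM + 1) scale, of each tested member of 14 gene lists (number tested in brackets). Red and blue points are called PWK-higher and PWK-lower, dark grey points pass the adjusted p only, pale points do not, black bars are list medians and the dashed line is the median over all genes, 0.13. Effectors (median -0.69) and chemokines (-0.60) lie lowest and spread widest.

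Of 38 interferon-stimulated genes tested, 4 were PWK-higher and none PWK-lower past 2-fold, 11 and 1 at the adjusted p alone, and the median difference was 0.29 (0.16 after rescaling by the median ratio) against 0.13 over all genes. Over all genes, 1.26% were PWK-higher past 2-fold, and 16.8% PWK-higher and 5.58% PWK-lower at the adjusted p. In C57, 34 of the 38 had a response below 0, against 20 in PWK, where 56% and 33.6% of all genes tested did. The 4 called genes were all of the Ifit family, antiviral proteins that bind viral RNA, which lie side by side on chromosome 19. Ifit3 (chr19:34583529-34588982) read 56, 57.1 and 54.8 TPM in basal C57 and 18.2, 20.2 and 14.8 TPM after IL-4. In PWK it read 15 and 10.7 TPM before and 15.8, 11.6 and 14.6 TPM after, so treated C57 came down to near the PWK level (difference 1.74 ± 0.21, adjusted p = 1.3e-06). Ifit3b, a near-identical copy, was higher in PWK, with 17.7 and 18.4 TPM against 6.24 and 1.17 TPM in C57. Reads of the copies can be exchanged. Their sum was 61.6 to 63 TPM in basal and 15.3 to 22.1 TPM in treated C57, and 26.3 to 34.8 and 29.3 to 36 TPM in PWK. Ifit2 and Ifit1 differed by 1.47 and 1.41. Ifit1 went from 58.7 to 31.7 TPM in C57 and from 40.7 to 59.1 TPM in PWK.

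The Ifit promoters are shown because these 4 neighbours were all PWK-higher. Capitals mark the interferon-stimulated response element core, which on this strand is a pair of TTTC repeats with any 2 bases between. Sequences are the RefSeq reference, GRCm38.p6, 250 bases up to the start.
Ifit1, chr19:34640639-34640888, + strand: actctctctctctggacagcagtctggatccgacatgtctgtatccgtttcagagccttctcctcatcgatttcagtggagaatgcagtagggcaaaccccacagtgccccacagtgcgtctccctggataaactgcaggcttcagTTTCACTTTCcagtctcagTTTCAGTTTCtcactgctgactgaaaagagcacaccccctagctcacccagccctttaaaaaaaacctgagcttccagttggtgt
Ifit3, chr19:34583279-34583528, + strand: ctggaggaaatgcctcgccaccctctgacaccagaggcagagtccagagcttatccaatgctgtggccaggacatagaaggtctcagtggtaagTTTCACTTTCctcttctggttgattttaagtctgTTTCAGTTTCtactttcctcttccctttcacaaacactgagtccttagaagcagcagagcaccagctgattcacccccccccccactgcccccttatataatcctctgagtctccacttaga
Ifit3b, chr19:34607707-34607956, + strand: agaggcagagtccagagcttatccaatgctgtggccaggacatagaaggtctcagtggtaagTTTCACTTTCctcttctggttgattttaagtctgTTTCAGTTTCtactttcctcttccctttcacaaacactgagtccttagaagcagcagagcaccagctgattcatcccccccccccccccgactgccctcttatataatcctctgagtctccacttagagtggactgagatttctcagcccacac
Each of the 3 holds 2 matches. The promoter windows listed for Ifit2 hold none.

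Among inflammatory and acute-phase genes, 1 of 29 tested was PWK-higher and 2 were PWK-lower. Hp (haptoglobin, which binds free haemoglobin) fell from 369 to 38.8 TPM in C57 and from 248 to 73.1 TPM in PWK (difference 1.46). Il6 read 0.457 TPM in basal and 1.43 TPM in treated C57, and fell from 4.6 and 6.43 TPM to 1.5, 1.15 and 1.39 TPM in PWK (difference -2.17). Treated libraries of the strains overlapped. Receptors split evenly, with Fpr2 and Fpr1 PWK-higher and Ccr7 and Cx3cr1 PWK-lower among 11 tested. The difference of Cx3cr1, the fractalkine receptor, at -1.05, was -0.33 (adjusted p = 0.60) with a pseudocount of 0.1 TPM, and it was -0.98 without the first treated C57 library and -0.97 without the first basal PWK library.

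Of 9 genes of MHC class II presentation tested, none passed 2-fold, 6 were PWK-lower at the adjusted p and 1 was PWK-higher, with a median of -0.47. Cd74, the invariant chain, added after its values were seen, went from 665 to 1190 TPM in C57 and from 712 to 717 TPM in PWK (difference -0.83 ± 0.072, adjusted p = 5.6e-09), and was past 2-fold after rescaling by the median ratio. Metabolic lists held few calls. No gene of glycolysis (20 tested), cholesterol synthesis (24), the cell cycle (30) or matrix, growth factors and scavenger receptors (29) passed 2-fold. At the adjusted p alone the cholesterol list had 10 PWK-higher and 1 PWK-lower member with TPM as deposited, and 3 and 2 after rescaling. Over all genes, 16.8% were PWK-higher and 5.58% PWK-lower at the adjusted p with TPM as deposited. PWK-higher and PWK-lower members numbered 5 and 2 for glycolysis, 10 and 1 for the cell cycle, and 6 and 3 for the matrix list, but after rescaling by the median ratio 1 and 6 for glycolysis, 7 and 1 for the cell cycle and 4 and 6 for the matrix list. Of 23 genes of fatty acid uptake and oxidation, 1 was called, Acsl1, which activates long-chain fatty acids. It read 144, 142 and 130 TPM in basal C57 and 55.2, 50.3 and 53.2 TPM after IL-4, but 85.5 and 79.9 TPM before and 105, 113 and 99.4 TPM after in PWK (difference 1.72 ± 0.10, adjusted p = 4.3e-12).

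Baseline and response were compared without a test. In each called gene the less responsive strain, the one with the smaller size of response, was asked whether its basal level lay more than 1.5-fold above (high basal), below (low basal) or within 1.5-fold of the other. Among PWK-lower genes 28 were high basal, 46 equal and 45 low basal. Among PWK-higher genes the counts were 29, 34 and 87. Over all genes tested, 13.7% were high basal, 69.7% equal and 16.6% low basal. PWK was the less responsive strain for 98 of the 119 PWK-lower and 98 of the 150 PWK-higher genes, in the latter mostly where C57 was repressed. The strains were closer after IL-4 than before in 95 of the 150 PWK-higher genes (63.3%) and in 45 of the 119 PWK-lower genes (37.8%), against 54.8% of all genes tested. Basal level enters the difference itself, so these shares are descriptions.

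**Figure D4:**
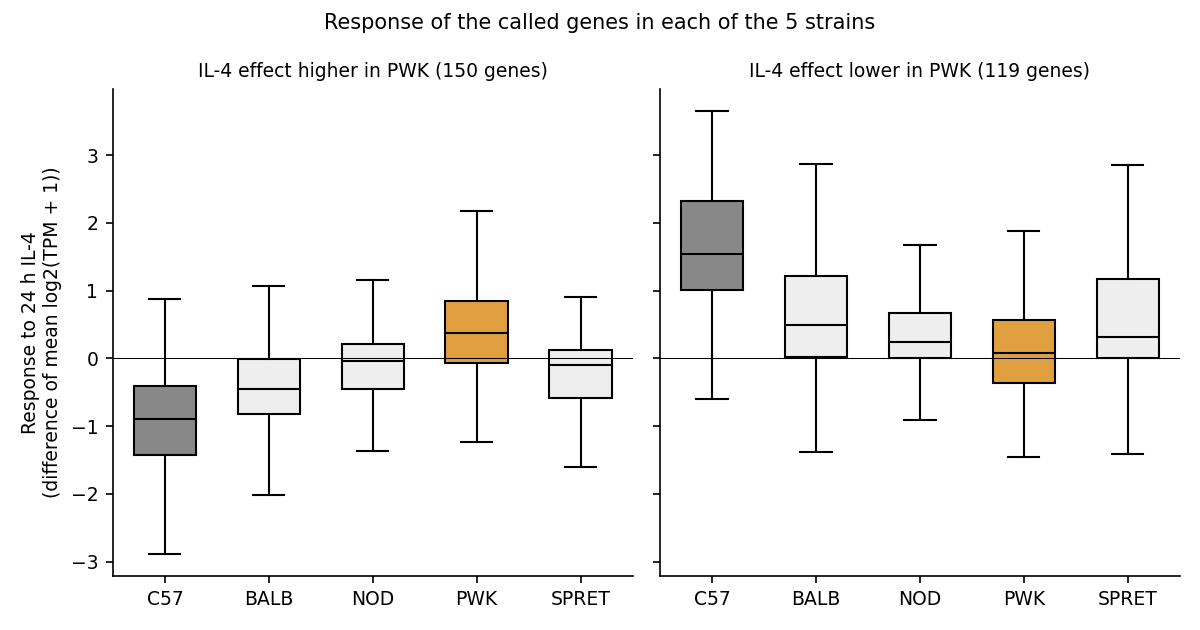
Responses to 24 h of IL-4, as differences of mean log2(TPM + 1), of the 150 PWK-higher genes (left) and 119 PWK-lower genes (right) in each of 5 strains. Boxes span the quartiles with the median, whiskers reach 1.5 times the box and outliers are not drawn. The genes were chosen on C57 and PWK, whose boxes lie apart by construction, and the medians of BALB, NOD and SPRET lie between theirs in both panels.

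The responses of BALB, NOD and SPRET did not enter the contrast that chose the genes. Their libraries did enter the expression filter and the estimate of the spread. The median response of the 119 PWK-lower genes was 1.54 in C57 and 0.09 in PWK, and 0.50, 0.25 and 0.32 in BALB, NOD and SPRET. For 83 of them (69.7%) the mean of the other 3 strains lay nearer to PWK than to C57, against 55.4% of all genes tested, and C57 had the highest response of 5 in 89 (74.8%, all genes 10.9%) and PWK the lowest in 58 (48.7%, all genes 8.94%). For the 150 PWK-higher genes the medians were -0.89 in C57, 0.37 in PWK and -0.45, -0.04 and -0.10 in BALB, NOD and SPRET. There 74 genes (49.3%) had the other strains nearer to PWK. C57 was lowest of 5 in 101 (67.3%, all genes 25.4%) and PWK highest of 5 in 106 (70.7%, all genes 19.7%). Choosing genes on C57 and PWK itself pushes these strains towards the ends of the 5. Their places in both groups are therefore descriptions, and the shares of all genes are no test of them. Single genes departed from the medians of their group. Mustn1 responded with -0.16, 0.17 and 0.58 in BALB, NOD and SPRET, against 2.59 in PWK. Ms4a4a responded with 6.95 in SPRET, Ccl24 with 6.53 and Cxcl3 with 5.38, above both C57 and PWK.

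**Figure D5:**
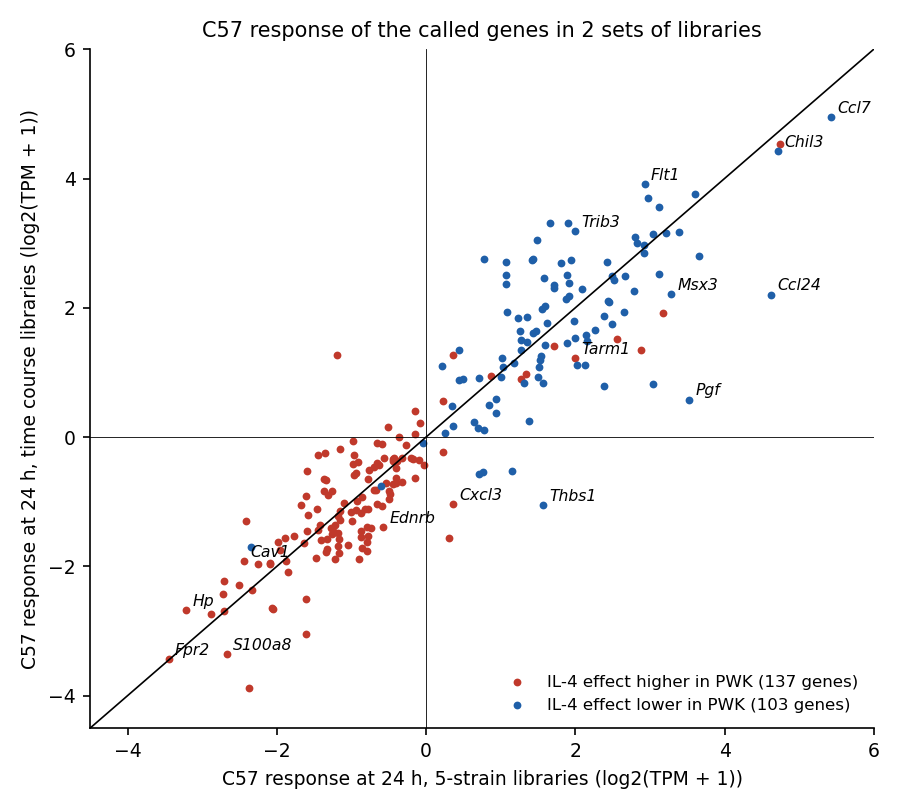
C57 response at 24 h in the 5-strain libraries (x axis) and in separate C57 time course libraries (y axis), log2(TPM + 1) scale, for the 137 PWK-higher and 103 PWK-lower genes tested in both. The line marks equality. Most blue genes are above 0 and most red genes below 0 on both axes, while Thbs1 and Pgf lie well under the line.

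The C57 side was examined in other libraries, a C57 time course tabulated separately. There 344 of 12088 genes were induced at 24 h (2.85%) and 352 repressed (2.91%). Of the 103 PWK-lower genes tested there, 76 were induced and 2 repressed, with a median of 1.79. Of the 137 PWK-higher genes tested there, 70 were repressed and 7 induced, with a median of -1.04, and 120 were below 0. Chil3, Ccl7 and Trib3 responded with 4.42, 4.95 and 3.18. Some named genes had smaller or opposite responses there. Thbs1 was -1.05 in the time course (adjusted p = 4.9e-05 in limma) against 1.57 in the 5-strain libraries, Pgf was 0.58 against 3.53, Cd83 was 0.79 against 2.39, Ccl24 was 2.20 against 4.63 and Cxcl3 was -1.03 against 0.37. Basal C57 levels differed between the sets as well. In the time course Ifi205 read 1.66 and 2.27 TPM, Plac8 0.4 and 0.845 TPM, and Cd83 13.5 and 14.6 TPM. The 5-strain basal C57 means were 12.9, 10.4 and 4.42 TPM. The C57 falls of Mustn1 (-0.12) and Plac8 (-0.56) did not pass there (adjusted p = 0.73 and 0.077 in limma). Those of Ifi205 (-0.64), Ednrb (-1.40) and Fxyd2 (-1.87) did. No second set of PWK libraries was analysed here.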

How the data were processed

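Per the labels, poly(A) RNA was sequenced. The authors aligned 75-bp single-end reads with STAR 2.5.3 to strain genomes made with MMARGE 1.0, shifted positions to mm10, and counted exons with HOMER 4.11.1, keeping 1 transcript per gene. The deposited values are TPM. DESeq2 fold changes and p-values deposited by the authors beside them were not used, and whether strand was used in counting is not given in the sources used here. The labels' dUTP protocol marks strand.

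From TPM, log2(TPM + 1) was fitted in limma 3.58.1 (R 4.3.3) with 1 mean per group over all 29 libraries and a mean-variance trend, after keeping 11907 genes with at least 1 TPM in 2 libraries. The difference was (PWK treated - PWK basal) - (C57 treated - C57 basal), two-sided, with Benjamini-Hochberg adjustment over all genes. The time course table of 16 libraries was fitted separately. TPM keeps no counting error, so depth limits low genes to an unknown extent. Members and lists were chosen with earlier results of these data known. Named were the 12 greatest called differences each way with a mean of 10 TPM or more, excluding Mir, Snor, Gm, Rik and numbered clone symbols, up to 4 called genes per list, and Arg1, Slc7a2, Msx3, Egr2, Pparg and Stat6. Genes called in opposite directions were also to be named, but there were 0. The script was tested on simulated data.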

Additional observations from a re-analysis of the deposited data

Results flagged for a closer look

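A difference between the strains' responses was tested for every gene by the interaction term of the limma fit, with adjusted p from Benjamini-Hochberg. It passed with over 2-fold for 150 PWK-higher and 119 PWK-lower genes. The named PWK-higher genes were Mustn1 (2.86), S100a8 (2.48), Slc40a1 (2.46), Tarm1 (2.46), S100a9 (2.09), Cav1 (2.08), Fxyd2 (2.08), Ednrb (2.07), Ifi205 (2.05), Fpr2 (2.00), Ms4a4a (2.00) and Plac8 (1.97), as log2 differences PWK minus C57. The named PWK-lower genes were Chil3 (-3.57), Ccl24 (-3.32), Msx3 (-3.27), Pgf (-2.74), Ccl7 (-2.69), Lrrc32 (-2.41), Tuba8 (-2.39), Trib3 (-2.26), Thbs1 (-2.25), Cd83 (-2.20), Hcar2 (-2.19) and Gsta2 (-2.19). Groups of 2 or 3 libraries are too small for a test of single outlying libraries.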

How the results depend on the processing

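The counts past 2-fold moved with the pseudocount and the counts at the adjusted p alone with the scaling. With 0.1 TPM there were 327 PWK-higher genes, 412 induced and 350 repressed genes in C57 and 335 induced and 111 repressed genes in PWK. With 5 TPM there were 55 PWK-higher and 50 PWK-lower genes, 160 induced and 80 repressed in C57, 92 induced and 25 repressed in PWK and 216 induced in the time course. At the adjusted p alone, PWK-higher and PWK-lower genes numbered 1022 and 1303 after rescaling by the median ratio, 1177 and 1078 after quantile normalization, and 1220 PWK-higher genes were found with only the groups compared in the fit. PWK-higher genes were then 44% and 52.2% of these under the 2 rescalings, against 75% with TPM as deposited.

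Leaving out 1 library at a time gave 131 to 177 PWK-higher and 116 to 129 PWK-lower genes, and 1093 to 2275 and 494 to 648 at the adjusted p alone, the lowest of the PWK-higher counts (1093) without the second basal PWK library. It gave 261 to 290 induced and 157 to 199 repressed genes in C57, 174 to 195 and 53 to 65 in PWK, and 337 to 363 induced in the time course. Of the basal categories, the equal share rose to 48% with a 2-fold margin and the high basal share to 37.7% with a pseudocount of 0.1 TPM.

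Deviations from the group means of same-numbered C57 libraries had r of -0.0854 to 0.0731, within the -0.177 to 0.116 of differently numbered ones. In PWK the same-numbered values were -0.0809 and -0.046. The 2 basal PWK libraries deviate from their mean as mirror images, so the PWK values cannot show whether libraries are paired. With a replicate block there were 160 PWK-higher and 120 PWK-lower genes. Gstt1, Gstt4 and Gm21948 aside, which were not examined singly, no named gene but Batf3 changed its call.

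Of 66 called genes named, with Batf3, BC117090, Gstt1, Gstt4 and Gm21948 not counted, 51 kept their call under every alternative. With 5 TPM, 13 named genes fell under 2-fold, among them Ccl22 (-0.99), Il6 (-0.96), Ccl2 (-0.92), Ifit3b (0.91), Slc7a5 (-0.79), Irf4 (-0.68), Ccr7 (-0.58) and Tfec (0.56), and Stfa1 missed the test with 0.1 TPM (adjusted p = 0.06 in limma). The values that turned in sign belonged to genes not called with TPM + 1. Egr2 was -0.34 with 5 TPM, -0.10 with the median ratio, -0.14 with quantiles and -0.05 to 0.13 without 1 library (-0.01 in 2 such fits). Stat6 was -0.14, -0.05 and -0.03 to 0.09 under the last 3 of these. Mrc1 was -1.23 with 5 TPM, -0.07, -0.09 and -0.05 to 0.07 (-0.01 in 1 fit). The cause was not tested.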

Other observations

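Genes known as targets of ATF4, the transcription factor of the amino acid and integrated stress response, were listed after Trib3 had been seen among the differences, so they carry no test as a group. Of 30 tested, 10 were PWK-lower and 0 PWK-higher past 2-fold, and 21 and 1 at the adjusted p alone. Over all genes, 0.999% were PWK-lower past 2-fold and 5.58% at the adjusted p. Of the 30, 27 differences were below 0, with a median of -0.60 (-0.77 after rescaling by the median ratio) against 0.13 over all genes. Atf4 itself went from 103 ± 3.18 to 264 ± 12.5 TPM (SD, n = 3) in C57 and from 288 to 252 TPM in PWK (difference -1.54 ± 0.071, adjusted p = 1.1e-13 in limma). Ddit3, which encodes CHOP, went from 97.5 to 204 TPM in C57 and from 176 to 121 TPM in PWK. Chac1, a glutathione-degrading enzyme, and Asns, asparagine synthetase, differed by -1.64 and -1.41. For Atf4, basal PWK (269 and 308 TPM) overlapped treated C57 (250 to 275 TPM). Ddit3 overlaps Mars on the opposite strand in the annotation. In BALB, NOD and SPRET the list's median response was 0.02, 0.12 and 0.40, against 0.71 in C57 and 0.11 in PWK, and in the C57 time course 28 of 29 members were above 0 with a median of 1.64.

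Antioxidant and NADPH-producing genes, many of them known NRF2 targets, were listed in the same way and moved the other way. All 26 tested were PWK-higher at the adjusted p, 12 of them past 2-fold, with a median difference of 0.96. Over all genes, 16.8% were PWK-higher at the adjusted p and 1.26% past 2-fold. The list leaves out the glutathione S-transferase gene Gsta2, which was PWK-lower (-2.19). Gstt1 (-1.58) and Gstt4 (-1.53), of the same enzyme class and also PWK-lower, are outside it too. After rescaling by the median ratio 22 were at the adjusted p and 8 past 2-fold, with a median of 0.78, and none was PWK-lower in either fit. C57 repressed 11 and PWK 0. Gsr, glutathione reductase, fell from 72.7 ± 2.95 to 22.6 ± 0.685 TPM (SD, n = 3) in C57 and read 41.6 and 38.0 TPM in PWK (difference 1.52 ± 0.076, adjusted p = 4.9e-13 in limma). Nqo1, Srxn1 and Gclm, which encode a quinone reductase, sulfiredoxin and a subunit of glutamate-cysteine ligase, differed by 1.51, 1.36 and 1.25. Nqo1 levels in PWK, 3.03 and 3.71 TPM, were below both C57 levels, 60.3 and 24.5 TPM. The list's median response was -0.83 in C57, -0.10 in PWK and -0.21, -0.21 and -0.24 in BALB, NOD and SPRET, and in the C57 time course all 26 members were below 0 (median -1.12).

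An iron list and a stefin A list, also made afterwards, had 3 PWK-higher and 2 PWK-lower of 16 tested, and 0 and 3 of 6. These counts are past 2-fold, where 1.26% of all genes tested were PWK-higher and 0.999% PWK-lower. The 3 stefin calls are near-identical copies and cannot be counted as separate genes. Other genes named after their values were seen include Tfrc, the transferrin receptor, which went from 41.5 to 191 TPM in C57 and from 7.95 to 9.54 TPM in PWK (difference -1.92). The iron exporter Slc40a1 differed by 2.46, but at 0.185 and 0.155 TPM in PWK almost no fall could register there. Gatm, the first enzyme of creatine synthesis, went from 11.8 to 41.0 TPM in C57 and from 13.8 to 144 TPM in PWK (difference 1.58). The stefin A genes Stfa1, BC100530 and BC117090, cysteine protease inhibitors of near-identical sequence whose reads can be exchanged, summed to 773 to 979 TPM in basal and 198 to 239 TPM in treated PWK libraries and to at most 1.60 TPM in any C57 library. The other 3 tested members did not share that fall. Stfa2 rose in PWK from 79.8 to 131 TPM (difference 0.54, adjusted p = 0.035 in limma). After rescaling by the median ratio 0 members were PWK-higher at the adjusted p. Stfa2l1 and Stfa3 differed by 0.39 and 0.22 and did not pass the test.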
